A study of Homo sapiens with 6 samples.

Results

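The G2/M and spindle genes encode the proteins that carry a cell from the end of DNA replication through chromosome separation. The 40 genes described here were taken by symbol from the deposited gene tables, which list 32353 genes, and all 40 were found in both the count table and the FPKM table. They were compared between CAL27 cells given a control plasmid (3 libraries) and CAL27 cells overexpressing RBM24 (3 libraries), in a study that looked for genes changed by RBM24. CAL27 is an established line of human tongue squamous cell carcinoma, and RBM24 is an RNA-binding protein known as a splicing regulator of muscle. The labels give neither the promoter that drove RBM24, the time after transfection, nor whether the overexpressing cells were 1 clone or a pool. Separate cultures are not named for the replicates either, and the p-values then reflect nothing beyond the spread among these 6 samples, part of which may be technical.

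Control libraries held between 55139782 and 62156648 gene counts and RBM24 libraries between 53558773 and 68804210. RBM24 itself rose from 2.35, 2.96 and 3.50 CPM (a gene's counts relative to the library total) in the control libraries to 125, 109 and 124 CPM in the RBM24 libraries, a log2 fold change of 5.34 (SE 0.0995, adjusted p = 2.16e-15, edgeR). Of 10 epithelial markers, 10 were detected, including KRT5 at 616 to 686 CPM and TP63 at 105 to 120 CPM. Marker CPM uses library totals without the further scaling applied to the other genes. The lowest were KRT14 at 3.54 to 4.9 CPM and DSG3 at 10.3 to 13.3 CPM. KRT8, at 1390 to 1770 CPM, and KRT18, at 1090 to 1340 CPM, were the highest. The summed CPM of those 10 lay between 3820 and 4200 in the control libraries and between 4320 and 4550 in the RBM24 libraries, with 0 of 10 called. The markers of other cell types, all detected in at least 1 library, were far lower in sum. The 6 fibroblast markers summed to 13.4 to 16.6 CPM in the control libraries and 16.3 to 17.0 CPM in the RBM24 libraries, led by COL1A1 at 9.62 to 11.9 CPM. The 6 immune markers summed to 19.0 to 21.4 and 19.5 to 20.6 CPM, mostly CD14 at 17.7 to 19.8 CPM, with PTPRC at most 0.0535 CPM. The 4 endothelial markers summed to 9.34 to 11.8 and 8.73 to 9.87 CPM, mostly CDH5 at 8.34 to 11.2 CPM, with KDR at most 0.0373 CPM. Of these 16 markers, 0 were called, and the part of any marker list in the results below was not tested. Control library 1 lay apart from the rest on the leading principal component (33.0% of the variance), at -33.4, with the other control libraries at -4.95 and -0.0363 and the RBM24 libraries at 9.28 to 15.4.

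Most of these genes are periodic: their transcripts build up in G2 and mitosis and are lost again in G1. Cyclin A and cyclin B activate CDK1 to start mitosis, kinesins and spindle proteins build and move the spindle, and kinetochores couple chromosomes to it. The spindle checkpoint holds the anaphase-promoting complex (APC/C) inactive until every chromosome is attached, after which APC/C with its activator CDC20 marks cyclin B and securin for destruction and separase cuts cohesin. Their promoters are known for a pair of short elements, the CHR (cell cycle genes homology region, TTTGAA or TTTAAA) and CCAAT boxes. The CHR is bound by the MuvB complex, which represses with DREAM in quiescent cells and activates with MYBL2 and FOXM1 in dividing ones, and CCAAT is bound by NF-Y.

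The promoters are shown because these elements recur in the set, although not every matched gene holds them. RefSeq promoter windows on GRCh38.p14, reaching from 250 bases before to 50 bases after a start site, were matched for 34 of the 40 genes, as 42 windows of 300 bases. FOXM1, AURKA, TTK, BUB3, UBE2C and TPX2 had no matched window. TTTGAA, searched on both strands, was in 25 of the 42 windows (59.5%), against 15.2% of the 35116 windows of all genes. CCAAT, likewise on both strands, was in 33 of 42 (78.6%), against 34.6% of all windows. Both were in 22 of 42 (52.4%), against 5.9% of all windows. The second form, TTTAAA, was in 13 of 42 (31.0%), against 12.2%. The 130 bases before an annotated start are printed below for 6 of the genes, 5′ to 3′ on the gene's strand, with every TTTGAA and CCAAT, or their reverse complements TTCAAA and ATTGG, in capitals.
MKI67 (chr10:128126424-128126553, minus strand): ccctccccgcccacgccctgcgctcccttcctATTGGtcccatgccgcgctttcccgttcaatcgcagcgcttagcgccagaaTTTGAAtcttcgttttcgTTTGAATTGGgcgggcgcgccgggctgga
ESPL1 (chr12:53268169-53268298, plus strand): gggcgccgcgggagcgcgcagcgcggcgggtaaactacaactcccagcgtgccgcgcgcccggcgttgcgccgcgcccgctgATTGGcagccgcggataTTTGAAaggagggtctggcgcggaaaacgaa
KIF11 (chr10:92593000-92593129, plus strand): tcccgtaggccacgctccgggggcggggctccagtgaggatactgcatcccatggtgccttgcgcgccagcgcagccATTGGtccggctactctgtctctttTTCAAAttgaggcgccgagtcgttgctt
CENPF (chr1:214603065-214603194, plus strand): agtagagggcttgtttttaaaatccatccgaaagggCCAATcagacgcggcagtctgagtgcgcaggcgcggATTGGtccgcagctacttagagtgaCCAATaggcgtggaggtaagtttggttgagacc
KIF14 (chr1:200620752-200620881, minus strand): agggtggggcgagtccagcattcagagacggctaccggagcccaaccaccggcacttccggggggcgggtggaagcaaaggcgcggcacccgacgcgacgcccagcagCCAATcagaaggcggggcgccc
UBE2S (chr19:55407789-55407918, minus strand): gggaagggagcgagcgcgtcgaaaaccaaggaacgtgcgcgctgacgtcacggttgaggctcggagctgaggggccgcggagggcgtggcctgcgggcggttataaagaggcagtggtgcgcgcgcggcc
The stretches of MKI67 and ESPL1 hold TTTGAA downstream of an ATTGG, and in MKI67 a second TTTGAA runs into an ATTGG with its last base shared between them. KIF11 has the element on the other strand, as TTCAAA, after an ATTGG. CENPF shows 3 CCAAT boxes and KIF14 shows 1, with no TTTGAA within these 130 bases, although a full window of each gene holds one. The CENPF stretch does hold the second CHR form, TTTAAA, left in lower case here. UBE2S has none of either within its stretch, although a full window of the gene holds CCAAT. A match is a description of the letters, not evidence of a bound site.

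The estimated change with RBM24 was positive for nearly all of the 40 genes, but the differences were small and several lay close to 0. UBE2C, the ubiquitin-conjugating enzyme that starts chains for APC/C, and KIF20A, a kinesin needed for cytokinesis, rose at an adjusted p under 0.05 (edgeR's quasi-likelihood test, adjusted with Benjamini-Hochberg over 17887 tested genes). Thus 2 of 40 were called higher, where 0.855% of all tested genes were, 0 were called lower, where 0.682% of all tested genes were, and 38 were not called. The log2 fold change, RBM24 over control, was positive for 38 of the 40 and for 48.6% of all tested genes, and the number of positive members ran from 33 to 40 over the alternative analyses. The median change was 0.10 on the log2 scale, against 0.00 over all tested genes, and without NUSAP1, which had almost no counts, single changes lay between -0.02 and 0.25. In 17 of the 40 (42.5%) the lowest RBM24 library exceeded the highest control library, as in 9.53% of all tested genes, and in 0 of the 40 did every RBM24 library lie below, as in 8.62% of all tested genes. Before adjustment, 15 members had p under 0.05 and were higher (edgeR), a share to set beside 6.62% of all tested genes. At the same threshold 0 members were lower, beside 1145 of the 17887 tested genes. These are bulk libraries, so more cells in G2 or mitosis and more of these transcripts per cell cannot be told apart.

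**Figure D1:**
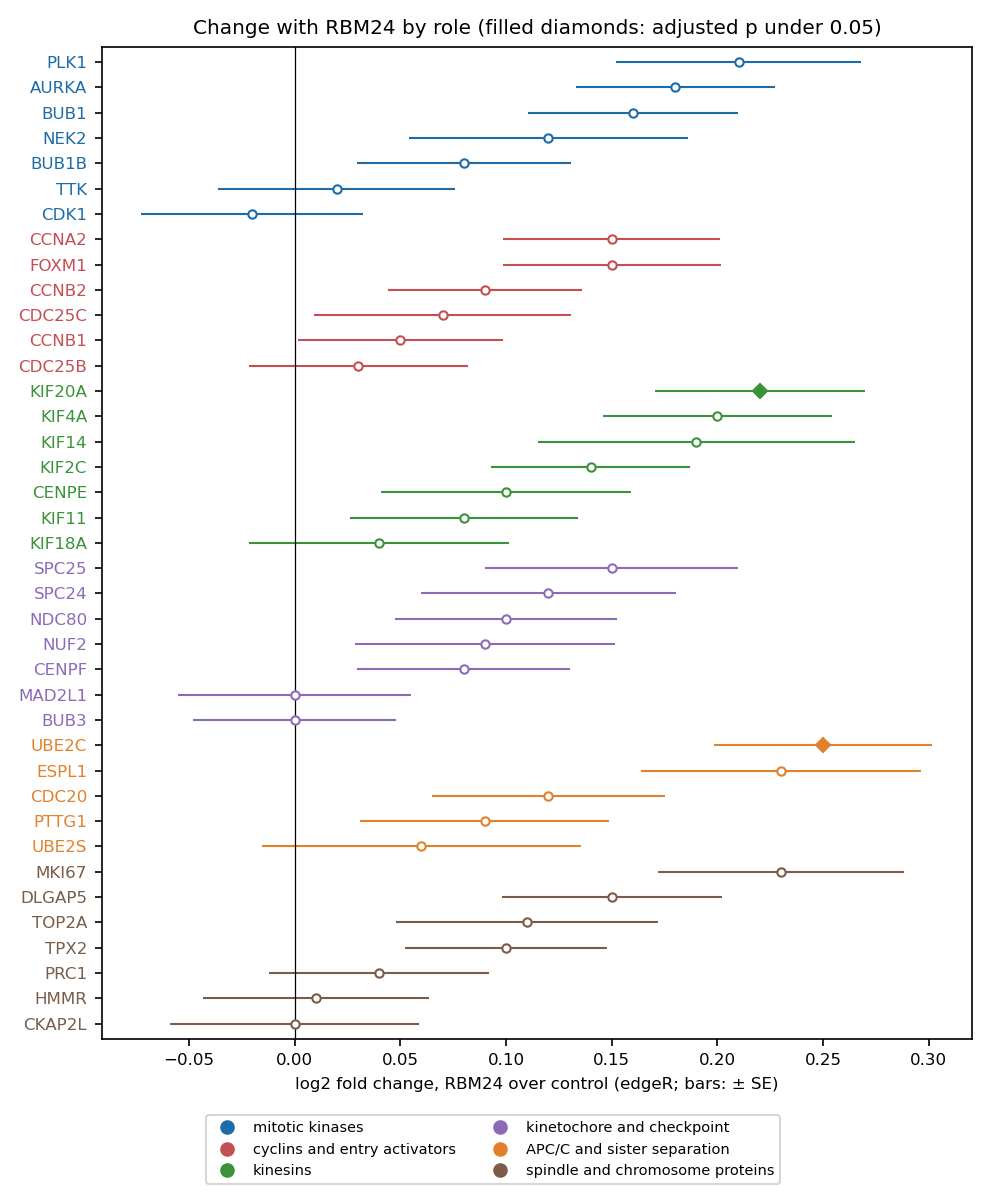
Log2 fold change of 39 of the genes (NUSAP1, with few counts, is left out), RBM24 over control, from edgeR (x axis), with the genes on the y axis grouped and coloured by role; bars are ± SE, and filled diamonds mark an adjusted p under 0.05. UBE2C (0.25) and KIF20A (0.22) are the filled points, CDK1 (-0.02) lies left of 0, and MAD2L1, BUB3 and CKAP2L lie on it.

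The number of calls changed when single libraries were left out, which leaves fewer libraries for the test of every gene. With RBM24 library 1 left out, 0 members were called (14 at an unadjusted p under 0.05, edgeR), where 0.387% of all tested genes were called higher. With RBM24 library 2 left out, 0 were called (13 unadjusted), against 0.334% of all genes. UBE2C was the 1 member called with RBM24 library 3 left out (0.604% of all genes) and the 1 called with control library 1 left out (0.649%). Members called numbered 2 without control library 2 (0.931%) and 3 without control library 3 (0.718%). Over the 17 alternatives the log2 change ran from 0.23 to 0.29 for UBE2C and from 0.18 to 0.25 for KIF20A. DESeq2 called 7 (AURKA, ESPL1, KIF20A, KIF4A, MKI67, PLK1 and UBE2C), where 1.55% of all genes it tested were called higher. With limma on log2(FPKM + 1), 0 were called (0.257% of all genes), and 20 had an unadjusted p under 0.05. For the unadjusted counts, the share over all genes was taken only in the edgeR fit of all 6 libraries.

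The 7 mitotic kinases start mitosis, build the spindle poles and run the checkpoint. Of these, 6 were positive and 0 were called, with a median log2 change of 0.12. In 3 of 7 (42.9%), AURKA, PLK1 and BUB1, all RBM24 libraries lay above all controls, beside 9.53% of all tested genes. AURKA, the kinase of centrosomes and spindle poles, measured 194, 200 and 200 CPM in the control libraries and 222, 221 and 230 CPM in the RBM24 libraries. All RBM24 values lay above all control values, and the log2 change was 0.18 (SE 0.0471), with an adjusted p of 0.0823 (edgeR). PLK1, which activates CDC25C and cyclin B and recruits APC/C regulators, measured 126, 149 and 141 CPM against 164, 162 and 157 CPM. Control library 1 was the low one, and the RBM24 libraries stood above the highest control, at a log2 change of 0.21 (SE 0.0580, adjusted p = 0.0875, edgeR). BUB1, the checkpoint kinase at kinetochores, had a log2 change of 0.16 with an adjusted p of 0.152 (edgeR). NEK2, which splits the centrosomes, and BUB1B, part of the checkpoint complex, had log2 changes of 0.12 and 0.08, and TTK, the kinase at the head of the checkpoint, 0.02. CDK1, the kinase that all of these work with, measured 154, 139 and 141 CPM in the control libraries and 140, 139 and 148 CPM in the RBM24 libraries, so that the groups overlapped fully. Its log2 change was -0.02 (SE 0.0525, adjusted p = 0.919, edgeR), and it was 0.01 when libraries were scaled by total counts alone and 0.03 without control library 1.

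The 6 cyclins and entry activators all had positive changes, with a median of 0.08 and 0 called. In 4 of 6 (66.7%) all RBM24 libraries lay above all controls, beside 9.53% of all tested genes. CCNA2, the cyclin of S and G2, measured 107, 99.6 and 108 CPM against 115, 112 and 121 CPM. FOXM1, the transcription factor that acts with MuvB on this gene set, measured 125, 137 and 137 CPM against 151, 146 and 145 CPM. Each of the 2 was higher in all RBM24 libraries. The log2 change was 0.15 for each, with adjusted p-values of 0.196 for CCNA2 and 0.199 for FOXM1 (edgeR). CCNB1, the main mitotic cyclin and among the most abundant of the 40, measured 347, 338 and 338 CPM in the control libraries and 347, 351 and 358 CPM in the RBM24 libraries. Its groups nearly touched, and its log2 change was 0.05 (SE 0.0484, adjusted p = 0.749, edgeR). CCNB2, the second B-type cyclin, was 117 ± 2.15 CPM in the control libraries and 125 ± 0.997 CPM in the RBM24 libraries (SD, n = 3 each), with an adjusted p of 0.414 (edgeR). The phosphatases that remove the inhibitory phosphates of CDK1 overlapped between groups, CDC25C at a log2 change of 0.07 and CDC25B at 0.03, which was -0.01 without control library 1.

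The 7 kinesins are motors that slide, depolymerise or carry cargo along spindle microtubules. Of these, 7 were positive and 1 (14.3%) was called higher, beside 0.855% of all tested genes, with a median log2 change of 0.14. In 4 (57.1%) all RBM24 libraries lay above all controls, beside 9.53% of all tested genes. KIF20A (ENSG00000112984.12, chr5:138178719-138187715, plus strand, GRCh38) measured 90.4, 96.3 and 99.6 CPM in the control libraries and 110, 113 and 111 CPM in the RBM24 libraries. The means were 95.4 ± 4.66 and 111 ± 1.53 CPM (SD, n = 3 each), a 1.16-fold rise with a log2 change of 0.22 (SE 0.0497, adjusted p = 0.0356, edgeR). The control libraries spread more than the RBM24 libraries, and the call was lost in 8 of 17 alternatives, among them RBM24 library 1, 2 or 3 left out (adjusted p = 0.128, 0.236 and 0.0786) and control library 1 or 2 left out (0.115 and 0.0565). Its annotated exons overlap those of CDC23 (1.72% of its exon bases) and BRD8 (3.34%) on the opposite strand, and the sources used here do not give whether the counting used strand. KIF4A, a chromosome-bound kinesin, measured 60.2, 58.2 and 60.4 CPM against 71.3, 63.6 and 70.3 CPM. RBM24 library 2 was the lowest of its group but still above all controls, at a log2 change of 0.20 with an adjusted p of 0.0874 (edgeR). KIF14, which acts in cytokinesis, measured 30.6, 26.3 and 32.6 CPM against 33.3, 32.6 and 36.3 CPM. The highest control and lowest RBM24 values were nearly equal, and the log2 change of 0.19 had an SE of 0.0751 (adjusted p = 0.280, edgeR). KIF2C, the microtubule depolymerase of centromeres, was higher in all RBM24 libraries, with a log2 change of 0.14 (adjusted p = 0.198, edgeR). CENPE, which carries chromosomes to the spindle equator, KIF11, which pushes the poles apart, and KIF18A, which dampens chromosome movement, overlapped between groups at 0.10, 0.08 and 0.04.

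The 7 kinetochore and checkpoint genes all had log2 changes at or above 0.00, with a median of 0.09 and 0 called. BUB3 turned negative with upper-quartile scaling. SPC25 was the 1 (14.3%) whose RBM24 libraries all lay above all controls, a share near the 9.53% of all tested genes. SPC25 and SPC24 are the inner pair of the NDC80 complex, the microtubule attachment of the outer kinetochore. SPC25 measured 35.5, 31.8 and 32.3 CPM against 36.6, 37.2 and 36.8 CPM, with a log2 change of 0.15 (SE 0.0598, adjusted p = 0.280, edgeR). SPC24 measured 46.8, 53.6 and 48.2 CPM against 55.8, 54.5 and 51.2 CPM, and control library 2 lay within the RBM24 range (log2 change 0.12, adjusted p = 0.412, edgeR). The outer pair, NDC80 and NUF2, had log2 changes of 0.10 and 0.09, both with overlapping libraries. CENPF, a large protein of the outer kinetochore corona, was at 0.08. MAD2L1 and BUB3, which carry the checkpoint signal to CDC20, were at 131 CPM and 226 CPM on average in each group, with log2 changes of 0.00 and SEs of 0.0552 and 0.0480.

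The 5 genes of APC/C action and sister separation comprised its activator CDC20, its enzymes UBE2C and UBE2S, securin (PTTG1) and separase (ESPL1). All 5 were positive, with a median log2 change of 0.12. UBE2C was called higher (1 of 5), beside 0.855% of all tested genes. UBE2C and ESPL1 (2 of 5) had all RBM24 libraries above all controls, beside 9.53% of all tested genes. UBE2C (ENSG00000175063.17, chr20:45812576-45816957, plus strand, GRCh38) measured 203, 216 and 198 CPM in the control libraries and 253, 246 and 235 CPM in the RBM24 libraries. The means were 205 ± 9.03 and 245 ± 9.07 CPM (SD, n = 3 each), so that the gap between groups exceeded the spread within them. The rise was 1.19-fold, a log2 change of 0.25 (SE 0.0517, adjusted p = 0.0183, edgeR). The call was lost in 6 of 17 alternatives, among them with an adjusted p of 0.128 without RBM24 library 1, 0.126 without RBM24 library 2 and 0.0528 without control library 3. UBE2S, the enzyme that lengthens the chains begun by UBE2C, did not separate: it measured 256, 327 and 283 CPM against 322, 297 and 280 CPM, at a log2 change of 0.06 (SE 0.0753). Control library 1 was its lowest, and without that library the log2 change was -0.03. ESPL1 measured 27.0, 29.4 and 32.1 CPM against 35.1, 34.1 and 35.0 CPM. The RBM24 libraries lay close together above all controls, at a log2 change of 0.23 (SE 0.0662, adjusted p = 0.104, edgeR). CDC20 measured 319, 361 and 336 CPM against 372, 376 and 360 CPM, where control library 2 just exceeded the lowest RBM24 library (log2 change 0.12, adjusted p = 0.349, edgeR). PTTG1 overlapped between groups at 0.09.

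The 8 spindle and chromosome proteins had a median log2 change of 0.10, with 7 positive and 0 called. In 3 (37.5%), MKI67, DLGAP5 and TPX2, all RBM24 libraries lay above all controls, beside 9.53% of all tested genes. MKI67, the Ki-67 protein that coats mitotic chromosomes and is used as a proliferation marker, measured 273, 272 and 306 CPM in the control libraries and 340, 316 and 343 CPM in the RBM24 libraries. The means of 284 ± 19.8 and 333 ± 14.7 CPM (SD, n = 3 each) differed by 0.23 on the log2 scale (SE 0.0581, adjusted p = 0.0596, edgeR). DLGAP5, which stabilises kinetochore fibres, measured 78.1, 74.8 and 78.6 CPM against 83.8, 81.8 and 90.8 CPM, a log2 change of 0.15 (adjusted p = 0.216, edgeR). TPX2, the activator of AURKA on spindle microtubules, was at 0.10 (adjusted p = 0.404, edgeR). TOP2A, which untangles sister chromatids, and PRC1, which bundles microtubules of the spindle midzone, overlapped between groups at 0.11 and 0.04. HMMR and CKAP2L, both proteins of spindle poles and microtubules, were at 0.01 and 0.00.

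NUSAP1, a microtubule-bundling protein, had 8, 6 and 13 counts in the control libraries and 11, 14 and 13 counts in the RBM24 libraries, far below the rest. In GENCODE 29, on GRCh38, 62.2% of its exon bases lie on the same strand within another entry, RP11-16O9.3 (ENSG00000285920.2), which the deposited table lists at 147, 146 and 148 CPM in the control libraries and 152, 153 and 158 CPM in the RBM24 libraries. The sources used here do not give how the counter shared reads between the 2 entries, so the level and the log2 change of NUSAP1 (0.40, SE 0.411, adjusted p = 0.747, edgeR) are uncertain. The overlapping entry had a log2 change of 0.07 (adjusted p = 0.573, edgeR). PRC1 also shares 57.6% of its exon bases with an entry on the same strand, but there the other entry averaged 13.3 CPM against 191 CPM for PRC1.

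**Figure D2:**
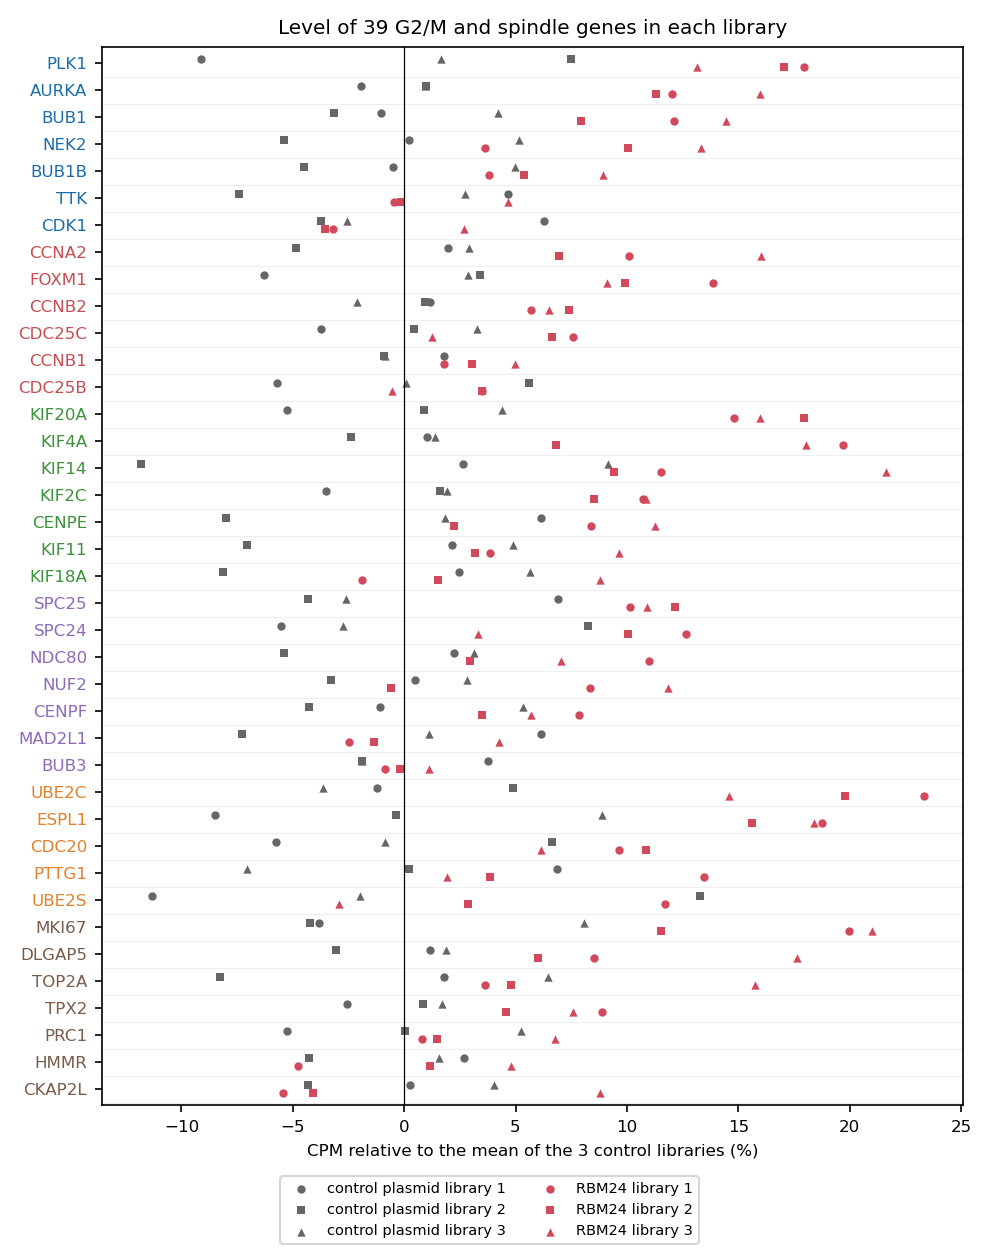
CPM of 39 of the genes in each of the 6 libraries (x axis, percent above or below the mean of the 3 control libraries), with the genes on the y axis by role; NUSAP1, with few counts, is left out. The RBM24 points lie mostly to the right of the control points in all roles, with full separation in 17 genes and overlap around 0 for CDK1, HMMR, CKAP2L, MAD2L1 and BUB3.

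Taken over all 40 genes, the shift was seen across libraries rather than in a single one. Relative to the mean of all 6 libraries, the median deviation of the 40 genes was -0.06, -0.09 and -0.02 on the log2 scale for the 3 controls and 0.07, 0.02 and 0.07 for the 3 RBM24 libraries. Control library 3 and RBM24 library 2 came closest to each other. Within roles the order was not always kept. For spindle and chromosome proteins the median deviation was 0.03 in control library 3 and -0.01 in RBM24 library 1. For kinetochore and checkpoint genes it was 0.00 in both control library 3 and RBM24 library 2. Control library 2 held the lowest value for 22 of the 40 genes and control library 1 for 13, while RBM24 library 3 held the highest value for 19 and RBM24 library 1 for 11. Together the 40 genes took 0.479%, 0.482% and 0.510% of all counts in the control libraries, against 0.538%, 0.532% and 0.548% with RBM24, and these shares did not overlap. Without control library 1, the library that stood apart on the leading component, the members' median was again 0.10 and 20 of 40 had all RBM24 libraries above all remaining controls, as in 14.7% of all tested genes; this check was chosen after the data were seen.

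**Figure D3:**
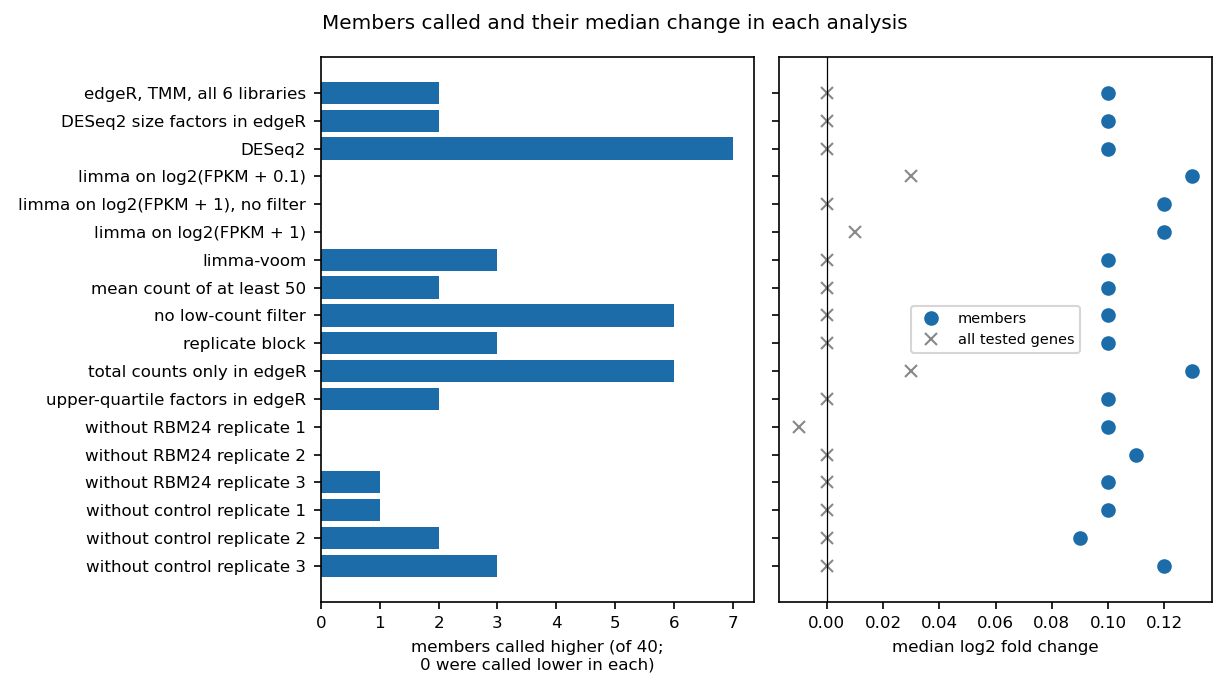
Number of the 40 genes called higher (left x axis) and their median log2 fold change, with that of all tested genes (right x axis), in each analysis on the y axis. The number called runs from 0 to 7, while the members' median stays between 0.09 and 0.13 and the median of all genes between -0.01 and 0.03.

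Levels between genes were compared as FPKM, which divides by gene length. In the control libraries the highest of the 40 were CDC20 (154 ± 10.5 FPKM), UBE2C (146 ± 5.37 FPKM) and CCNB1 (128 ± 2.18 FPKM; SD, n = 3 each), followed by UBE2S at 94.3 ± 11.9 FPKM, all of them APC/C partners or its substrate. CDC20 and UBE2C differed by less than the spread of CDC20. UBE2C measured 142, 152 and 145 FPKM in the control libraries and 183, 179 and 172 FPKM in the RBM24 libraries, where its mean of 178 ± 5.57 FPKM was above that of CDC20 at 172 ± 3.42 FPKM, with overlapping libraries. AURKA at 61.9 ± 2.27 FPKM and TPX2, which activates it, at 60.2 ± 2.62 FPKM were neighbours that did not differ beyond their spread. At the low end stood CENPE at 5.36 ± 0.404 FPKM, KIF14 at 3.74 ± 0.461 FPKM and ESPL1 at 3.04 ± 0.337 FPKM, with NUSAP1 listed at 0.04 FPKM. ESPL1 and its inhibitor PTTG1, at 38.1 ± 1.83 FPKM, thus lay far apart in transcript level per length.

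**Figure D4:**
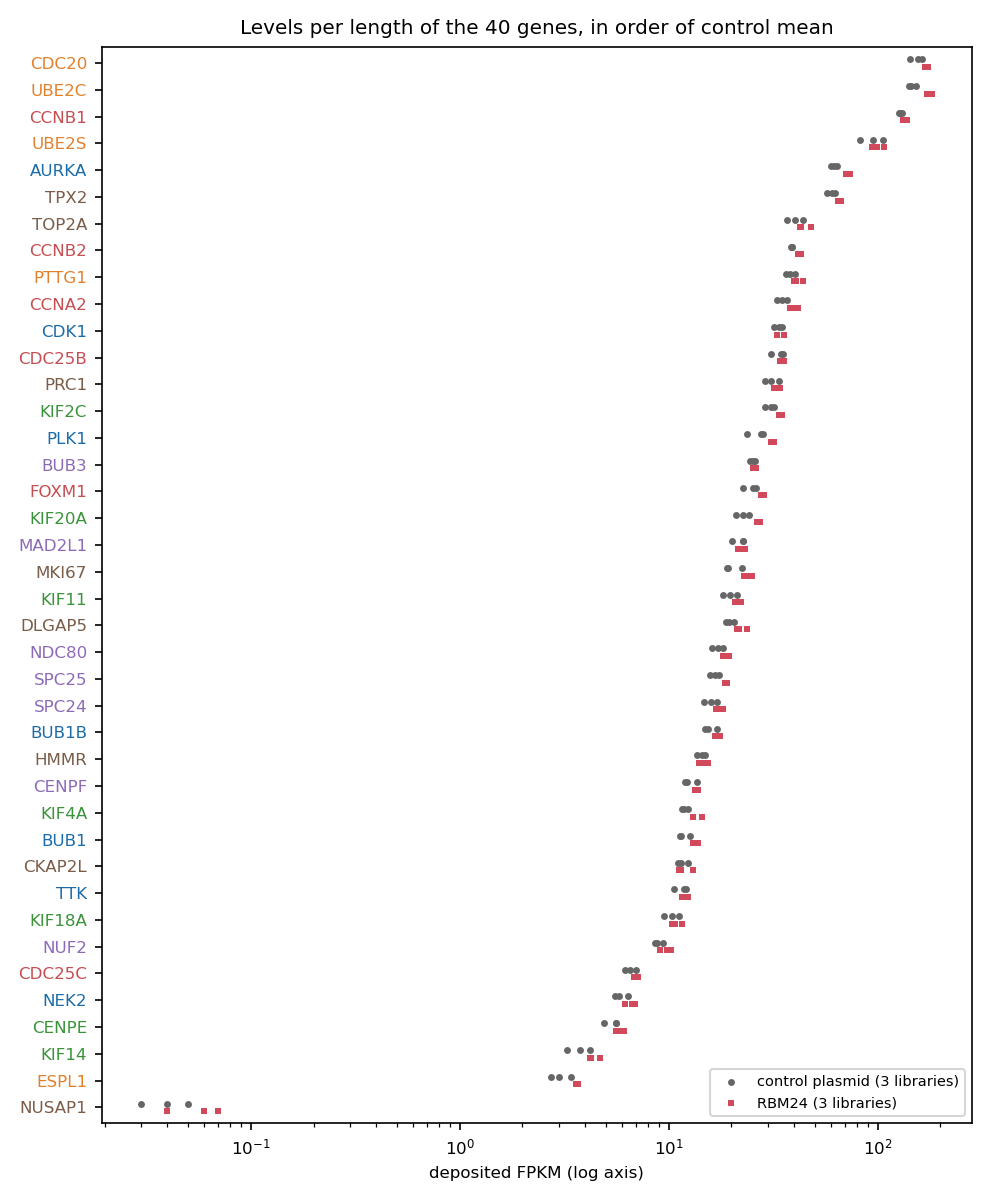
Deposited FPKM of the 40 genes on a log x axis, with the genes on the y axis in order of their control mean; points are single libraries of the control and RBM24 groups. CDC20 (154 FPKM) heads the order and NUSAP1 (0.04 FPKM) ends it, and the difference between groups is small against the range between genes.

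Other genes of the same machinery were taken from lists by function, 106 genes in all and none of them among the 40. Of these, 1 (0.943%) was called higher, a share near the 0.855% of all tested genes, 0 were called lower, 69 were positive, and the median log2 change was 0.04, against 0.10 for the 40; the difference between the lists was not tested. The called gene was KIFC1, a minus-end kinesin that clusters spindle poles, at 85.8, 92.6 and 94.1 CPM in the control libraries and 109, 110 and 112 CPM in the RBM24 libraries. The groups were apart, with a log2 change of 0.28 (SE 0.0498, adjusted p = 0.00902, edgeR). The call was lost in 4 of 17 alternatives, among them without RBM24 library 2 (adjusted p = 0.0692, edgeR). Of the 106 genes, 26.4% had all RBM24 libraries above all controls. Over all tested genes, 9.53% had all RBM24 libraries above and 8.62% had all below. Among 9 other mitotic kinesins, 8 were positive, 4 had libraries that did not overlap, and the median was 0.10. The 19 other spindle and cytokinesis proteins had 16 positive and 7 that did not overlap (median 0.09), and the 13 condensin and cohesin genes had 12 positive and 3 (median 0.06). The 18 other kinetochore genes had 11 positive and 5 that did not overlap, with a median of 0.04. The 15 core subunits of APC/C with its second activator FZR1 had 6 positive and 1 that did not overlap (6.67%, median -0.01). The APC/C enzymes and substrates among the 40 had a median of 0.12. The 16 regulators of entry and exit, among them the CDK1 inhibitors WEE1 (log2 change 0.01) and PKMYT1 (0.13), had 9 positive, 3 wholly above, 2 wholly below and a median of 0.04.

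The 16 regulators of these promoters, which comprise genes of the MuvB, MYB and DREAM complexes and the 3 NF-Y subunits NFYA, NFYB and NFYC, had 7 positive, 5 with all RBM24 libraries above, 2 with all below, 0 called and a median log2 change of -0.01. Over all tested genes, 9.53% had all RBM24 libraries above and 8.62% had all below. MYBL2, the activating partner of MuvB, overlapped between groups at 0.10 (adjusted p = 0.428, edgeR). Among the 40, the 23 genes with TTTGAA in a promoter window had a median log2 change of 0.09, and the 11 matched genes without it 0.12. Some of the 11, KIF20A and CCNB1 among them, hold the second CHR form TTTAAA, and the called UBE2C had no matched window. The comparison list of G1/S and DNA replication, 30 genes, had 20 positive and a median of 0.03. In 6 of its genes (20.0%) all RBM24 libraries lay above, and in 2 all lay below. Its 1 called gene (3.33%, beside 0.855% of all tested genes) was CCNE1, the cyclin that drives cells into S phase. CCNE1 measured 21.3, 23.6 and 20.8 CPM in the control libraries and 29.1, 27.0 and 28.1 CPM in the RBM24 libraries. It rose by 0.36 on the log2 scale (SE 0.0655, adjusted p = 0.00958, edgeR). The call was lost in 3 of 17 alternatives, among them without RBM24 library 1 (adjusted p = 0.0636, edgeR).

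**Figure D5:**
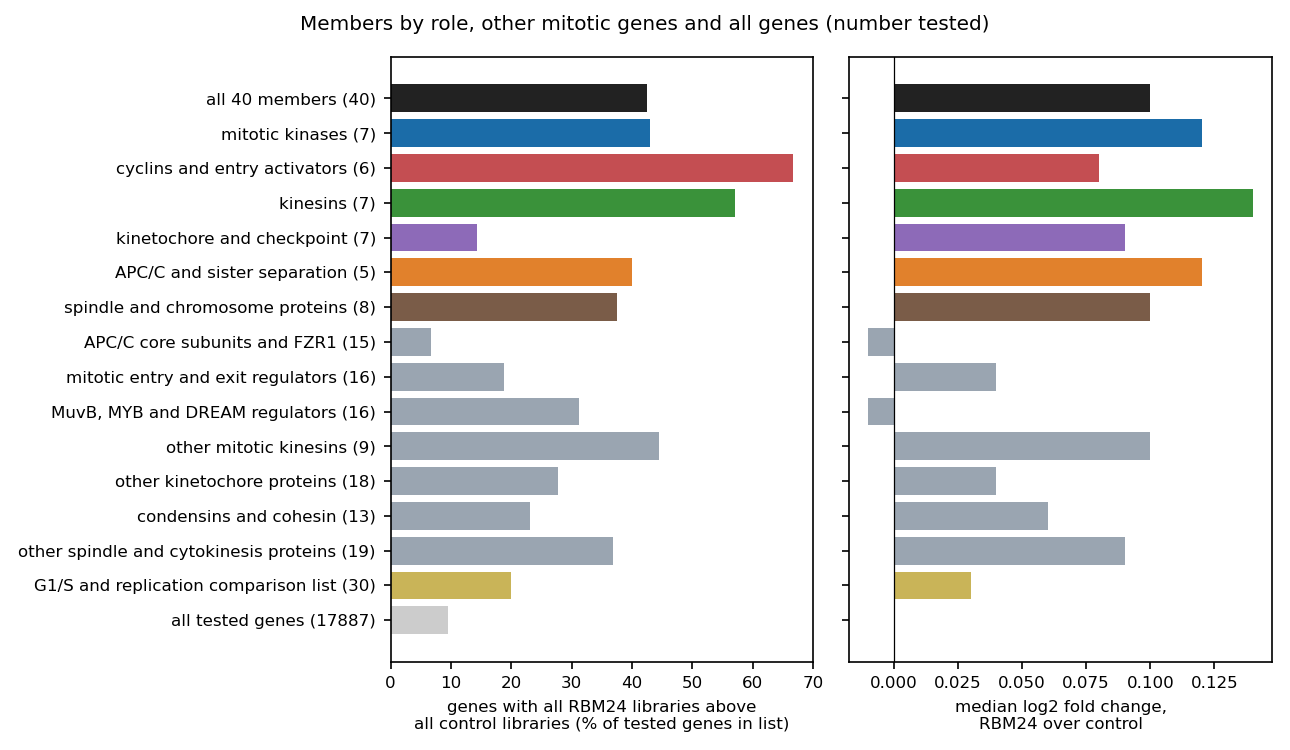
Share of each list's tested genes with all RBM24 libraries above all control libraries (left x axis, percent) and median log2 fold change (right x axis); lists on the y axis, with the number tested (the MuvB, MYB and DREAM list includes the NF-Y subunits). The share is 42.5% for the 40 genes, 57.1% for kinesins and 14.3% for kinetochore genes among them, 6.67% for the APC/C core and 9.53% for all tested genes.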

How the data were processed

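Total RNA of 6 CAL27 libraries was read as 150-nt pairs, per the labels' protocols. The submitters' processing notes name HISAT2 and GRCh38; the aligner's version, the counter, the annotation release, the kit and strandedness are not given in the sources used here. Raw counts for 32353 genes make up the authors' deposited count table. The deposited FPKM table holds values for 31513 genes that the authors divided by gene length and library total. NC in a column name was taken to mean control plasmid.

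Counts were tested in R 4.3.3 with edgeR 4.0.16: filterByExpr (17887 genes), TMM factors, group alone, quasi-likelihood F test with 4 residual degrees of freedom, Benjamini-Hochberg, called at an adjusted p under 0.05. CPM uses TMM-scaled totals, except for the cell type markers, whose CPM uses total counts alone, and SD is over 3 libraries. The biological coefficient of variation was 0.0645. Chi-square per gene between library pairs ran from 4.52 to 33.3, well above the sampling noise of a duplicated library. Alternatives used DESeq2 1.42.0, limma 3.58.1, other factors and filters, the replicate block and each library left out. Checks of the role groups and of the count of non-overlapping genes under other scalings were added after the data were seen. The pipeline was tested on simulated data, with 50 genes changed at each fold. It called 8% of those changed 1.1-fold, 46% at 1.2-fold and 100% at 1.5-fold, with 5 false calls among 132. Genes not called here thus cannot be read as unchanged.

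The members and lists were chosen with earlier results of these data known. Named with every library's value are called genes, the 2 members of each role with the smallest p, and the 3 highest and 3 lowest in control FPKM; UBE2S and the entry overlapping NUSAP1 were added after their values were seen. Coordinates are from GENCODE 29, which holds all 40 members, and promoters from RefSeq (GRCh38.p14). Tables and figures used Python 3.11.15, pandas 2.3.3 and matplotlib 3.10.9. Splicing and binding data were not analysed here.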

Additional observations from a re-analysis of the deposited data

How the results depend on the processing

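Of the 40 genes, 0 were called lower in any alternative, and the members' median stayed between 0.09 and 0.13. The number called higher, 2 in edgeR with TMM, was 7 with DESeq2, 6 with no low-count filter (0.943% of all genes), 6 with total counts alone (1.25%), and 0 with limma on log2(FPKM + 1), with the filter (0.257%) or without (0.0476%), and on log2(FPKM + 0.1) (0.319%). Leaving out single libraries gave 0 to 3, with 2 without control library 2 (0.931%) and 3 without control library 3 (0.718%). The cause was not tested. KIF20A and UBE2C were both among the calls in each alternative that kept all 6 libraries and used counts. Total-count scaling moved the median of all genes by 0.03. Replicate numbers did not pair the samples (correlations of deviations of 0.00724, 0.0555 and -0.00039), and with the replicate block 3 members were called (0.883% of all genes), UBE2C, KIF20A and MKI67. All RBM24 libraries lay above all controls in 17 members by total-count CPM (12.8% of all genes) and in 18 by FPKM (12.2%).

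The sign turned, with the change never called, for genes near 0. CDK1 was at 0.01 in the 3 FPKM analyses and with total counts, and ran from -0.05 to 0.03 with single libraries left out. CKAP2L was at 0.02 to 0.03 in the FPKM analyses, 0.03 with total counts and 0.00 at a minimum mean count of 50, and ran from -0.07 to 0.03 with single libraries left out. BUB3 was at 0.00 with upper-quartile factors. With single libraries left out, BUB3 ran from -0.01 to 0.03, CDC25B from -0.01 (without control library 1) to 0.07, UBE2S from -0.03 (without control library 1) to 0.15, HMMR from -0.03 to 0.04, TTK from -0.03 to 0.05, KIF18A from -0.02 to 0.08 and MAD2L1 from -0.05 to 0.05. Low counts limit the value of NUSAP1.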

Other observations

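Promoter elements were also set beside the changes of all tested genes. Of the tested genes matched to a RefSeq window, 686 held both TTTGAA and CCAAT, with a median log2 change of 0.00, 7 called higher and 10 called lower. The 10967 matched genes without the pair also had a median of 0.00, with 101 called higher and 77 called lower. Over all tested genes, 0.855% were called higher and 0.682% lower. The libraries separated, with RBM24 higher, in 13.1% of these 686, and in 9.92% of the 10967 genes without the pair. The 20 members that hold the pair are among the 686, and 8 of those 20 separated in this way. The difference between these shares was not tested.

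Of the 106 other mitotic genes, 4 were wholly lower in the RBM24 libraries and 0 of these were called; over all tested genes, 8.62% were wholly lower, and the difference was not tested. The 4 are named after their values were seen. Among them were CDC14A, a phosphatase that reverses CDK1 phosphorylation, at a log2 change of -0.32 (adjusted p = 0.307, edgeR), and ENSA, an inhibitor of the PP2A phosphatase in mitosis, at -0.13 (adjusted p = 0.309, edgeR). The others were the DREAM-related genes E2F5 and LIN52, at -0.14 and -0.13, with adjusted p-values of 0.438 and 0.484 (edgeR).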
